A study of Danio rerio with 5 samples.

Results

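A selection of 4 zebrafish Hox loci was described, namely hoxca, hoxba, hoxaa and hoxab with the 200 kb on each side of them. The description used every peak that 5 chromatin libraries gave there. The members were all peaks in 4 fixed windows on the genome build danRer7, also called Zv9. The windows were selected on position, with the dome H3K27me3 peaks and MethylCap peaks of these lists already known. The windows were chromosome 23 from 35.89 to 36.38 Mb (hoxca), chromosome 3 from 23.77 to 24.24 Mb (hoxba), chromosome 19 from 18.99 to 19.46 Mb (hoxaa) and chromosome 16 from 20.08 to 20.53 Mb (hoxab). They held 1111 of the 781830 peaks of the 5 lists, or 0.142%. The core of a window was the window less 200 kb a side, and a peak was counted in the zone that held its centre. The cores of hoxca, hoxba, hoxaa and hoxab were 90, 70, 70 and 50 kb long and held 158 peaks in all, and the flanks held 953. The cores made up 280 of the 1880 kb of the windows, or 14.9%.

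Hox genes encode homeodomain transcription factors that give body segments their identity along the head-to-tail axis, and their order on the chromosome follows the order in which they are switched on. Before a Hox gene is active, its cluster is commonly held under trimethylation of lysine 27 of histone H3 (H3K27me3), the mark that Polycomb repressive complex 2 writes and that keeps developmental genes silent. Methylation of DNA at CpG is common over most of the vertebrate genome and is low over many CpG-rich developmental genes. Teleost fish carry duplicated Hox clusters that have lost different genes.

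The study profiled both marks during early development in whole embryos of zebrafish of mixed AB and Tubingen strain. H3K27me3 was profiled by ChIP-seq with a Millipore antibody at 2 times, dome (towards the end of the blastula period) and 48 hours post fertilisation (hpf). Methylated DNA was captured with a Diagenode kit and sequenced (MethylCap-seq) at dome, 24 hpf and 48 hpf. Each of the 5 groups was 1 library, so no value has a replicate spread, no test between stages or loci was possible, and a whole embryo mixes all its cell types. A change in the share of cells with a mark cannot be told apart from a change in the mark within cells.

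The whole H3K27me3 lists held 31983 peaks at dome and 6434 at 48 hpf on the 25 numbered chromosomes, and covered 1.32% and 0.471% of the chromosome span. The whole MethylCap lists held 220564, 330176 and 192673 peaks at dome, 24 hpf and 48 hpf and covered 7.18%, 8.76% and 5.30%. Fold enrichment and −log10 q of a peak are the authors' own values from the peak caller, and describe a peak within its list only. Intervals in parentheses are Wilson 95% intervals, which cover counting error only and treat peaks as independent. A stretch without a peak may lie below the detection limit of its library.

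The clusters differ in the genes they hold. The RefSeq gene table of a different assembly, GRCz12tu, which was used only for names and for the order of neighbours, listed 34 protein-coding hox genes in the 4 clusters. The hoxca cluster held 11, from hoxc13a to hoxc1a, and the hoxba cluster 11, from hoxb13a to hoxb1a. In hoxba the neighbouring eve1, an even-skipped homeobox gene, was listed beside them. The hoxaa cluster held 7, from hoxa13a to hoxa1a, with its neighbour evx1, another even-skipped homeobox gene. The hoxab cluster held 5, namely hoxa13b, hoxa11b, hoxa10b, hoxa9b and hoxa2b, beside skap2, an adaptor protein of immune cell signalling. Genes with the number 13 act at the tail end of the body axis and those with low numbers in the hindbrain. No gene was assigned to a peak, because an annotation of danRer7 was not used here, and for the same reason the cluster names of the windows were taken as given.

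At dome, all 4 cores were filled with H3K27me3 peaks to a similar extent. Because the wide H3K27me3 domains were known when the windows were chosen, the contrast between core and flank is a description and not independent evidence. Dome peaks covered 35.9% of the hoxca core, 36.4% of the hoxba core, 31.1% of the hoxaa core and 37.8% of the hoxab core. The flanks were covered to 3.60%, 7.69%, 3.51% and 4.45%, still above the 1.32% of all chromosomes. Over the 4 loci together the core was covered to 35.2% and the flanks to 4.81%, a ratio of 7.30. In bins of 50 kb over all chromosomes, 14 of 27122 bins (0.0516%) reached the dome coverage of the least covered of the 4 cores. Bins of the loci themselves were among them, such as 39.6% in hoxba, 35.8% in hoxca and 35.2% in hoxaa. The map of all peaks shows the cores as dense blocks of dome peaks in each window.

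**Figure D1:**
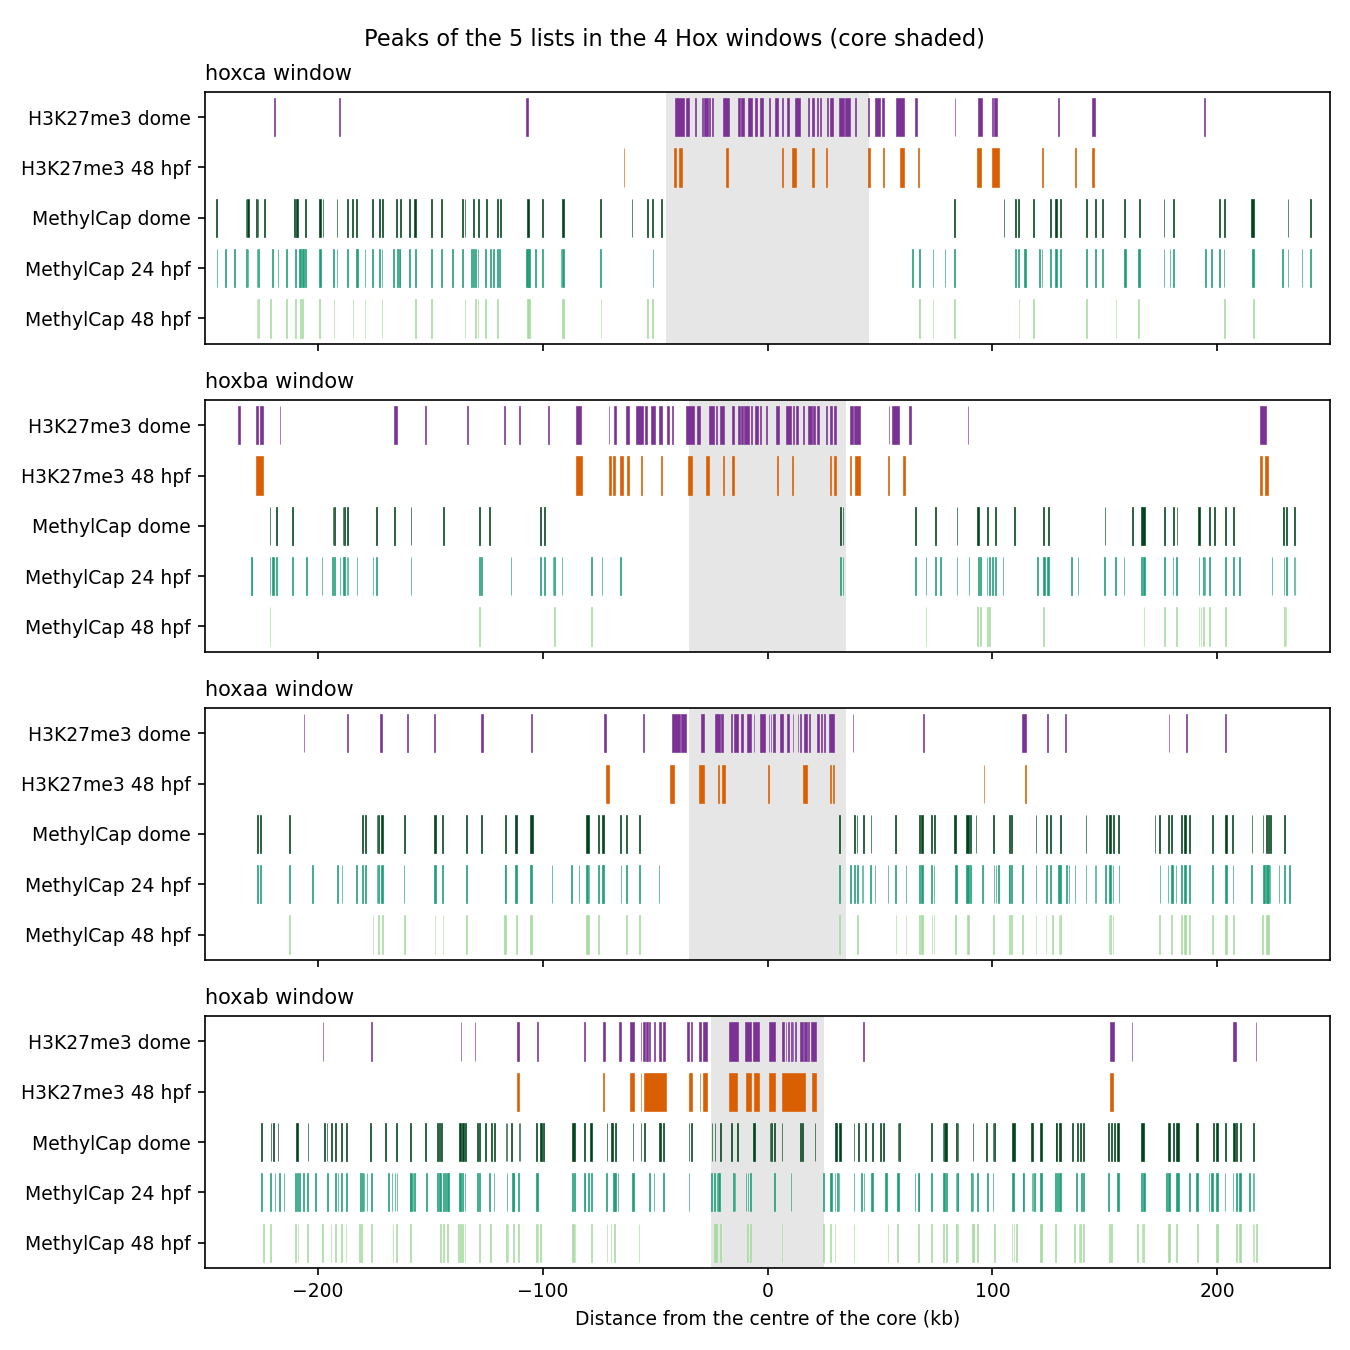
Positions of all peaks of the 5 lists in the 4 windows, against distance from the centre of the core in kb; each bar spans the bases of a peak and the core is shaded. Dome H3K27me3 peaks fill all 4 cores, 48 hpf H3K27me3 peaks fill the hoxab core (47.1% of its bases) and thin out in the other 3 (7.35% to 10.1%), and MethylCap peaks are missing from the hoxca core at all 3 stages.

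The dome peaks of the cores were many and individually modest. The hoxca, hoxba, hoxaa and hoxab cores held 28, 24, 23 and 14 of them, and 89 of the 175 dome peaks in the windows were in a core (50.9%, 43.5 to 58.2%). Their median width was 859 bp, against 626.5 bp in the flanks and 397 bp in the whole list. Their median fold enrichment was 1.85, against 3.02 in the flanks and 3.15 in the whole list, while their median −log10 q of 3.16 was above the 2.43 of the flanks and the 1.59 of the whole list. Core folds ran from 1.5 to 2.83 and flank folds from 1.65 to 4.58, so the zones overlapped. Core peaks were thus wider and had higher −log10 q than the list as a whole, at lower fold. A peak's fold is relative to the background that the caller took for its surroundings.

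Within a core, the dome peaks stood close together. The median gap between neighbouring peaks was 1816 bp in hoxca, 1276 bp in hoxba, 1413.5 bp in hoxaa and 893 bp in hoxab, and the widest gap in any core was 5568 bp, in hoxca. When peaks within 5 kb were joined, each core became mainly 1 domain. The hoxca domain ran from 36093694 to 36174129 on chromosome 23, joined 27 peaks over 80.4 kb and was the widest of the 202 dome domains of at least 10 kb. The hoxba domain on chromosome 3 from 23968898 to 24035317 joined 24 peaks over 66.4 kb and ranked 3. The hoxaa domain on chromosome 19 from 19195394 to 19254515 joined 23 peaks over 59.1 kb and ranked 9. The hoxab domain on chromosome 16 from 20287983 to 20326586 joined 14 peaks over 38.6 kb and ranked 18. These domains took up 89.4%, 93.3%, 84.5% and 77.2% of their cores, and peaks filled 39.8%, 40.0%, 36.8% and 49.0% of them. Joining within 1 kb left no domain of 10 kb in the windows at dome, the widest being 7.02 kb, so the domains are strings of separate peaks.

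The widest dome peak of a core was its outermost peak on the left in 3 loci and on the right in hoxaa. In hoxca it spanned 4208 bp from 36093694 to 36097901 (fold 1.91, −log10 q 2.83). In hoxba it spanned 3325 bp from 23968898 to 23972222 (fold 1.92, −log10 q 4.51). In hoxaa it spanned 2332 bp from 19252184 to 19254515 (fold 2.46, −log10 q 8.83), and in hoxab 3692 bp from 20287983 to 20291674 (fold 1.84, −log10 q 5.41). The highest-scoring core peaks were other peaks in every locus. They were the hoxca peak from 36147052 to 36149596 (fold 2.37, −log10 q 7.90), the hoxba peak from 24032830 to 24033647 (fold 2.27, −log10 q 5.47), the 272-bp hoxaa peak from 19239493 to 19239764 (fold 2.82, −log10 q 9.49) and the 379-bp hoxab peak from 20317415 to 20317793 (fold 2.13, −log10 q 9.45). Width and score thus picked different sites of a cluster.

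The edges of the cores were not edges of the mark in every locus. On the left of hoxca the outermost core peak had its centre 5.80 kb inside the edge, and the next dome peak outside was 61.9 kb away (659 bp, fold 3.03). On the right of hoxca the string went on, with a core peak 0.0405 kb inside the edge (fold 2.05) and a 2393-bp peak 3.80 kb outside it (fold 2.32, −log10 q 5.30). In hoxba the peaks next to the edges had their centres 0.560 kb inside and 7.32 kb outside on the left (folds 1.92 and 2.44) and 5.04 kb inside and 2.35 kb outside on the right (folds 1.85 and 2.43). In hoxaa they were 6.17 kb inside and 2.40 kb outside on the left (folds 2.83 and 1.82) and 6.65 kb inside and 3.0 kb outside on the right (folds 2.46 and 2.60). In hoxab they were 9.83 kb inside and 2.83 kb outside on the left (folds 1.84 and 3.20) and 4.62 kb inside and 17.8 kb outside on the right (folds 2.43 and 2.92). The 48 hpf peak on the right edge of hoxca, from 36179698 to 36180683, began at the same base as the dome core peak from 36179698 to 36180222, but its centre fell in the flank.

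By 48 hpf the loci no longer looked alike in coverage. In score, hoxab differed already at dome. The median −log10 q of its dome core peaks was 5.41, against 3.04, 2.87 and 3.22 in hoxca, hoxba and hoxaa. The ranges overlapped, at 2.71 to 9.45 in hoxab and 1.36 to 9.49 in hoxaa. H3K27me3 peaks of 48 hpf covered 7.35% of the hoxca core, 8.42% of the hoxba core and 10.1% of the hoxaa core, but 47.1% of the hoxab core. Coverage at 48 hpf divided by that at dome was 0.205 in the hoxca core, 0.232 in hoxba and 0.324 in hoxaa, all below the 0.358 of all chromosomes. In the hoxab core it was 1.25, the only core in which the covered share was larger at 48 hpf. The larger share rests on a single 48 hpf peak of 10493 bp, of which dome peaks filled 38.8%. In the flanks the same ratio was 0.735, 0.535, 0.301 and 1.0 for hoxca, hoxba, hoxaa and hoxab. The pooled core coverage of 15.4% at 48 hpf rests on hoxab, and was 8.51% without it. In bins of 50 kb, 301 of 27122 (1.11%) reached the 48 hpf coverage of the least covered core, bins of hoxba and hoxaa among them. The 48 hpf list is the shorter of both H3K27me3 lists, and what part depth or enrichment of the library has in the difference was not tested.

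**Figure D2:**
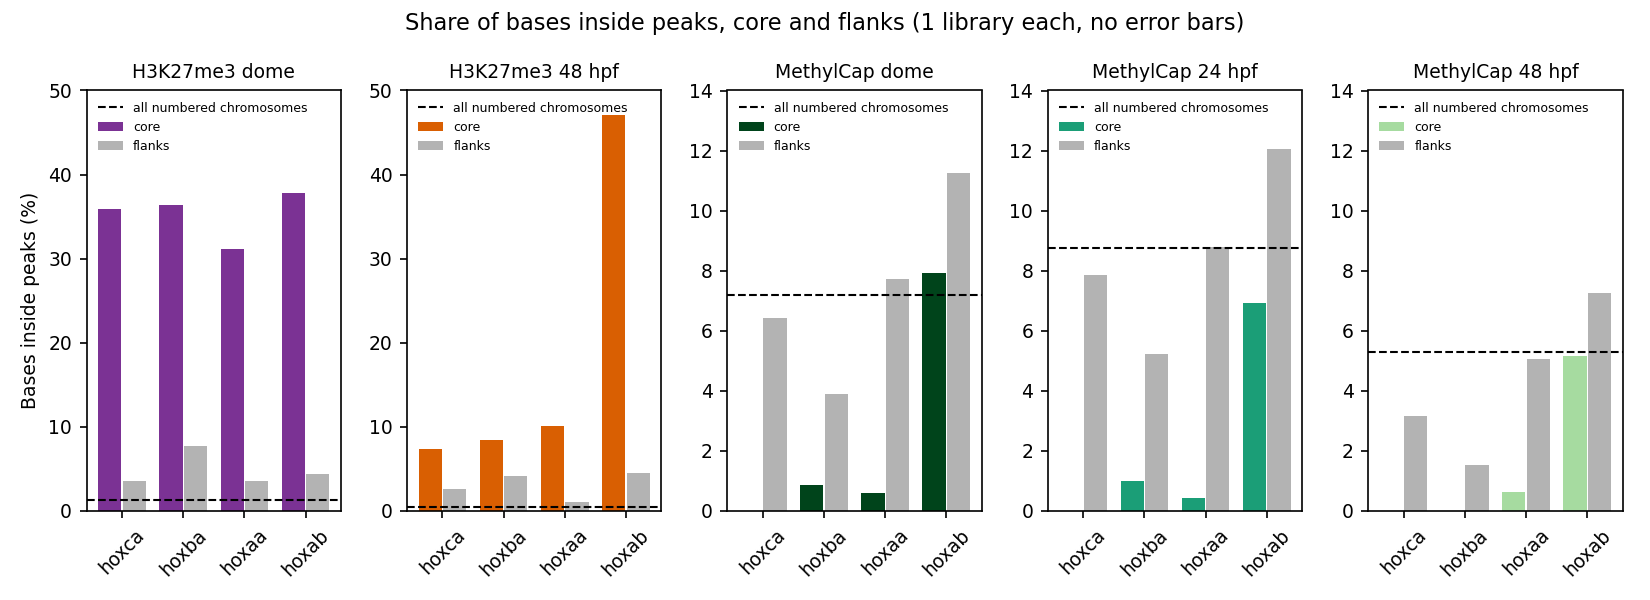
Share of bases inside peaks, in percent, in the core (coloured bars) and flanks (grey bars) of each locus, with a panel for each library and the level over all numbered chromosomes as a dashed line; there are no error bars because each group was 1 library. The 4 cores sit between 31.1% and 37.8% for dome H3K27me3, while at 48 hpf the hoxab core (47.1%) stands above the other 3; MethylCap panels have their own scale, and each core bar is below its flank bar.

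The number of core peaks at 48 hpf differed little among loci, but their width and score differed. The hoxca, hoxba, hoxaa and hoxab cores held 7, 8, 7 and 6 of them, which is 28 of the 65 in the windows (43.1%, 31.8 to 55.2%). Their median width was 756, 692 and 709 bp in hoxca, hoxba and hoxaa and 2506 bp in hoxab. Their median −log10 q was 1.42, 1.42 and 1.46, and 5.53 in hoxab. Of these, 2, 0, 2 and 6 had a −log10 q of at least 2, against 22, 19, 18 and 14 of the dome core peaks. The median −log10 q of the whole list was 2.05 at 48 hpf, above the medians of hoxca, hoxba and hoxaa, and 1.59 at dome. The share of each whole list at or above 2 was not computed. The highest −log10 q among the 22 peaks of the other 3 cores was 2.93, below the lowest of hoxab, 3.95, so the loci did not overlap in score. In fold they did overlap, at 1.54 to 1.87 in the 3 cores and 1.68 to 2.46 in hoxab. Median gaps between neighbouring peaks were 6330, 6197 and 8091.5 bp, and 3160 bp in hoxab.

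Nearly all H3K27me3 core peaks of 48 hpf met a dome peak, in cores where dome peaks stood close together. Of the 28 core peaks of 48 hpf, 27 overlapped a dome peak by at least 1 bp (96.4%, 82.3 to 99.4%), against 72.7% of all 48 hpf peaks and 30 of 37 in the flanks (81.1%, 65.8 to 90.5%). The exception was a hoxca peak of 361 bp from 36161026 to 36161386 (fold 1.64, −log10 q 1.35), which ended 25 bp short of a dome peak. Dome peaks covered 35.2% of the cores and 1.32% of all chromosomes, so an overlap of 1 bp is easier to meet in a core. With the dome list cut to the length of the 48 hpf list, 75.0% of the core peaks of 48 hpf overlapped a dome peak. The shares of all 48 hpf peaks and of flank peaks were not computed with the cut list. The 75.0% therefore cannot be set against the 72.7% and 81.1%, which rest on the full list. In the other direction, 33 of 89 dome core peaks overlapped a 48 hpf peak (37.1%, 27.8 to 47.5%), against 15.6% of all dome peaks and 36 of 86 in the flanks (41.9%, 32.0 to 52.4%). The loci divided as they did in coverage, with 6 of 28 in hoxca, 8 of 24 in hoxba, 6 of 23 in hoxaa and 13 of 14 in hoxab. Without hoxab the share was 20 of 75 (26.7%, 18.0 to 37.6%). In these 3 cores, the median width and fold of dome peaks with a 48 hpf peak were 1271 bp and 1.96, and of those without 748 bp and 1.83.

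Counted in bases rather than peaks, hoxab was again apart from the other 3 cores. Of the dome-covered bases of a core, 14.6% lay in 48 hpf peaks in hoxca, 17.5% in hoxba and 21.6% in hoxaa, and 89.7% in hoxab. Of the 48 hpf bases of all cores, 71.5% lay in dome peaks, with 71.4%, 75.5%, 66.6% and 72.0% in hoxca, hoxba, hoxaa and hoxab. In this direction the loci lay close together. These shares of bases were not computed over all chromosomes, so they compare the cores with each other only.

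Peaks that lost their call at 48 hpf were not only small ones. The widest dome core peaks with no 48 hpf peak were the hoxca peak of 2206 bp from 36169579 to 36171784 (fold 1.75, −log10 q 3.01), the hoxba peak of 2259 bp from 24013276 to 24015534 (fold 1.74, −log10 q 3.49) and the hoxaa peak of 2210 bp from 19221873 to 19224082 (fold 1.93, −log10 q 2.79). The nearest 48 hpf peak was 7913, 483 and 1176 bp away. The highest-scoring hoxaa core peak of dome also had none, the nearest being at 1188 bp. In hoxab the single dome peak with none was 215 bp wide, from 20323164 to 20323378 (fold 1.88, −log10 q 4.55).

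The hoxab core nearly kept the outer ends of its dome domain at 48 hpf, while 72.0% of its 48 hpf bases lay in dome peaks. Its joined 48 hpf domain ran from 20288011 to 20326654, 38.6 kb wide and rank 3 of the 66 domains of at least 10 kb at that stage, and the dome domain ran from 20287983 to 20326586. Peaks filled 61.0% of it at 48 hpf and 49.0% at dome. Starts of its 48 hpf peaks differed from those of the overlapped dome peaks by a median of 99 bp and ends by 55.5 bp. In hoxca, hoxba and hoxaa the median differences were 634.5, 371 and 617 bp for starts and 710.5, 267 and 228 bp for ends. No other core gave a 48 hpf domain of 10 kb when peaks within 5 kb were joined.

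Peak by peak, the folds of the hoxab core at both stages were near each other in the 5 peaks with a single dome partner, and the −log10 q differed more. The 48 hpf peak from 20288011 to 20291614 had a fold of 1.81 and a −log10 q of 5.71, and its dome peak 1.84 and 5.41. The peak from 20295276 to 20297748 had 1.68 and 5.35, and its dome peak 1.58 and 3.10, the largest difference in −log10 q among these 5. The peak from 20298776 to 20301257 had 1.69 and 5.13, and its dome peak 1.76 and 5.40. The peak from 20305638 to 20308167 had 2.01 and 8.17, and its dome peak 2.05 and 7.84. The peak from 20324676 to 20326654, the highest-scoring core peak of 48 hpf, had 2.46 and 11.1, and its dome peak 2.43 and 9.18. The 10493-bp peak from 20311328 to 20321820 (fold 1.71, −log10 q 3.95) took the place of 8 separate dome peaks with folds of 1.63 to 2.13, which filled 38.8% of its bases. The fold at 48 hpf was below that of every overlapped dome peak in 3 of 6 hoxab peaks, against 6 of 6 in hoxca, 7 of 8 in hoxba and 7 of 7 in hoxaa. Folds of different lists come from libraries of their own, so these pairs describe the sites and were not tested.

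**Figure D3:**
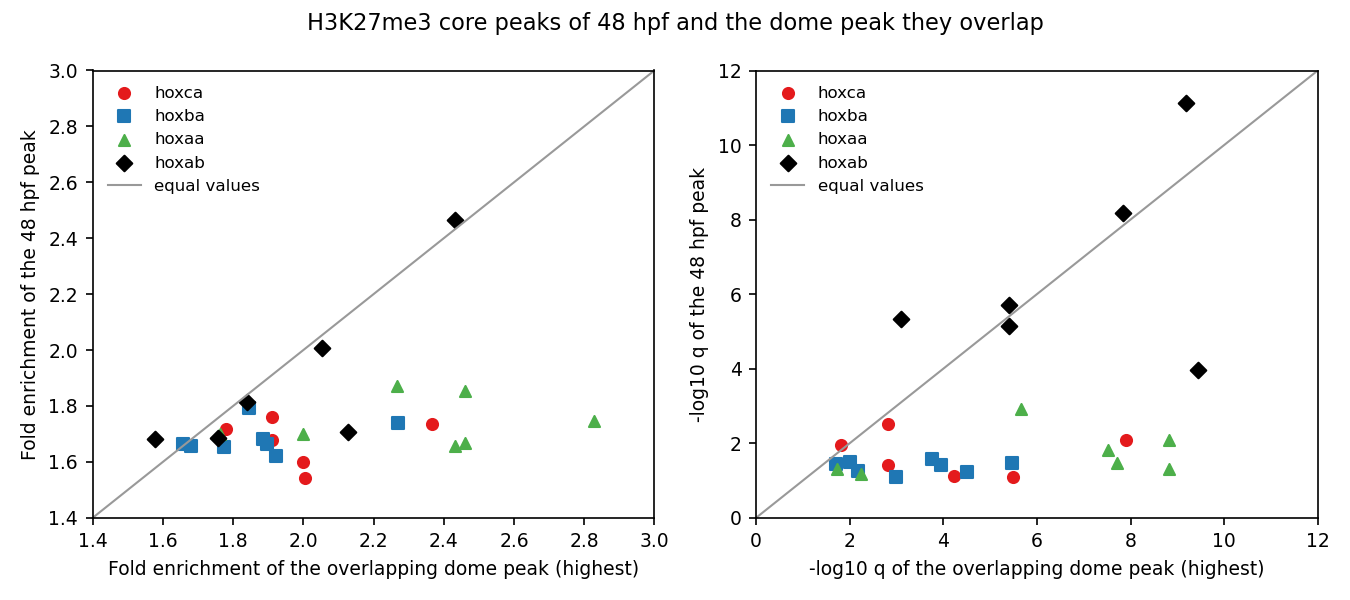
Each core peak of 48 hpf against the highest value among the dome peaks it overlaps, for fold enrichment (left) and −log10 q (right), with the line of equal values in grey and a symbol for each locus; the axes of the left panel begin at 1.4. The hoxab peaks lie near the line in fold, except the 10493-bp peak at 1.71. In the −log10 q of 48 hpf all 6 of hoxab are at 3.95 or higher and those of hoxca, hoxba and hoxaa are at 2.93 or lower. In the −log10 q of dome the loci overlap.

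At the other loci the highest-scoring core peaks of 48 hpf were low in −log10 q, at folds within the hoxab range of 1.68 to 2.46. In hoxca it spanned 36095516 to 36096976 (fold 1.76, −log10 q 2.53), inside the 4208-bp dome peak. In hoxba it spanned 23989244 to 23989958 (fold 1.68, −log10 q 1.57), inside a dome peak of fold 1.89 and −log10 q 3.77. In hoxaa it spanned 19202840 to 19203548 (fold 1.87, −log10 q 2.93), inside a dome peak of fold 2.27 and −log10 q 5.66. The widest were 1502 bp in hoxca, from 36146108 to 36147609, 2035 bp in hoxba, from 23969474 to 23971508, and 2214 bp in hoxaa, from 19194500 to 19196713. None of these wide peaks exceeded a −log10 q of 2.08. A near-equal fold did not give an equal score. At a fold of 1.68, the hoxba peak from 23989244 to 23989958 had a −log10 q of 1.57. The hoxab peak from 20295276 to 20297748, also at 1.68, had 5.35.

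Pooled over the loci, H3K27me3 in the flanks was concentrated near the cores, and it was lopsided. At dome the mean coverage of the 8 flank bins within 50 kb of a core was 12.5%, and 2.79%, 1.70% and 2.24% in the bins from 50 to 100, 100 to 150 and 150 to 200 kb. Within 50 kb the sides differed. The left and right sides were covered to 0% and 18.9% in hoxca, to 27.4% and 15.1% in hoxba, to 13.2% and 1.84% in hoxaa and to 22.5% and 1.42% in hoxab. At 48 hpf the same bins had 0.494% and 10.8% in hoxca, 14.4% and 7.21% in hoxba, 6.44% and 0% in hoxaa, and 31.9% and 0% in hoxab. The richer side was thus the same at both stages in each locus. Some poorer sides went against the pooled means and had more farther out. At dome the left of hoxca had 1.32% and the right of hoxaa 5.07% from 50 to 100 kb. The right of hoxab had 3.78% from 100 to 150 kb. At 48 hpf the right of hoxaa had 2.0% from 50 to 100 kb and that of hoxab 2.15% from 100 to 150 kb.

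The left flanks of hoxba and hoxab held dome domains of their own. The hoxba flank domain ran from 23934374 to 23963036, 28.7 kb with 9 peaks, and the hoxab flank domain from 20238974 to 20259552, 20.6 kb with 9 peaks, and they ranked 25 and 48 of 202. The hoxab flank domain was also present at 48 hpf, as 16.0 kb from 20243703 to 20259655 (rank 14 of 66), most of it a single peak of 9692 bp. The hoxba flank domain had no counterpart of 10 kb.

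The highest-scoring flank peak of hoxab was the highest-scoring H3K27me3 peak of all 4 windows at both stages, and lay 1.98 kb from the core at dome and 1.86 kb at 48 hpf. At dome it spanned 20276322 to 20278025 (fold 3.20, −log10 q 17.7), and at 48 hpf 20276348 to 20278144 (fold 3.05, −log10 q 18.0). In hoxca the highest-scoring flank peak of dome spanned 36235764 to 36237004, 55.8 kb from the core, with a fold of 4.40 and a −log10 q of 13.5. The 48 hpf peak there had a fold of 2.46 and a −log10 q of 4.60, and the highest-scoring flank peak of 48 hpf lay 99.4 kb from the core (fold 3.90, −log10 q 5.45). In hoxba the highest-scoring flank peak was at the same site at both stages, 48.1 kb from the core at dome, from 23919653 to 23921913 at dome (fold 4.50, −log10 q 8.66) and 23919943 to 23922419 at 48 hpf (fold 2.74, −log10 q 4.92). In hoxaa it differed, from 19182393 to 19185914 at dome (fold 1.96, −log10 q 5.60), 4.09 kb left of the core, and from 19339492 to 19340145 at 48 hpf (fold 3.34, −log10 q 2.30), 79.5 kb to the right. The highest-scoring flank peaks thus had higher folds than all core peaks of their own locus and stage in hoxca, hoxba and hoxab. In hoxaa this held at 48 hpf, with 3.34 against at most 1.87 in the core. It did not hold at dome, with 1.96 against up to 2.83.

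MethylCap peaks were nearly absent from 3 cores. The MethylCap peaks too were known when the windows were chosen. Their contrasts between core and flank, and between core share and length, are a description and not independent evidence. In hoxca no MethylCap peak had its centre in the core at dome, 24 hpf or 48 hpf, while the flanks held 61, 85 and 36 peaks and were covered to 6.43%, 7.85% and 3.16%. In hoxba the core was covered to 0.877%, 1.01% and 0%, and the flanks to 3.89%, 5.24% and 1.53%. In hoxaa the core was covered to 0.590%, 0.436% and 0.630%, and the flanks to 7.72%, 8.79% and 5.05%. In hoxab the core was covered to 7.92%, 6.91% and 5.15%, near the 7.18%, 8.76% and 5.30% of all chromosomes, and its flanks to 11.3%, 12.1% and 7.26%. Core coverage was below the coverage of the whole flanks in all 4 loci at all 3 stages. It was not below that of every adjoining 50 kb. Left and right of hoxab these had 2.26% and 4.66% at 48 hpf, both less than the core. At 24 hpf they had 6.15% and 11.9%, less and more than the core. At dome they had 8.13% and 8.62%, both more than the core. The left 50 kb of hoxba had 0% at dome, less than its core.

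Counted over the windows, 16 of 285 MethylCap peaks were in a core at dome (5.61%, 3.48 to 8.92%), 16 of 391 at 24 hpf (4.09%, 2.53 to 6.54%) and 9 of 195 at 48 hpf (4.62%, 2.45 to 8.54%), while the cores made up 14.9% of the length. Most of these lay in hoxab. Without hoxab the shares were 3 of 170 (1.76%, 0.602 to 5.06%), 3 of 251 (1.20%, 0.407 to 3.45%) and 1 of 108 (0.926%, 0.164 to 5.06%).

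The stretches free of MethylCap peaks were among the longest of the genome in 3 loci. Because the windows were chosen with these peaks known, the ranks and bin shares are a description and not independent evidence. In the 3 lists together, the gap around the hoxca core ran for 111.4 kb from 36087879 to 36199287, rank 2 of 373035 gaps, whose median was 2055 bp. The hoxba gap ran for 97.5 kb from 23939740 to 24037258 (rank 4) and the hoxaa gap for 79.9 kb from 19176838 to 19256720 (rank 9). The gap at the centre of hoxab was 6.75 kb, from 20299231 to 20305979 (rank 44369). At 48 hpf alone the hoxba gap reached 148.4 kb and was the longest of 192648. In bins of 50 kb, 12 of 27122 (0.0442%) held no MethylCap peak centre at any stage, and hoxba, hoxaa and hoxca each held 1 of them. For single stages the background was 0.424% at dome, 0.114% at 24 hpf and 0.527% at 48 hpf.

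The gaps reached past the dome H3K27me3 domains of the cores, but not equally far at each end. On the right of hoxba and hoxaa they ended at 24037258 and 19256720, close to the domain ends at 24035317 and 19254515. The hoxca gap began 2.12 kb left of the core and ended 19.3 kb right of it. The hoxba gap began 30.3 kb left of the core, taking in most of the separate flank domain, and ended 2.74 kb inside its right edge. The hoxaa gap began 13.2 kb left of the core and ended 3.28 kb inside its right edge. Dome H3K27me3 peaks covered 35.3%, 37.1% and 34.4% of these gaps with 31, 31 and 25 peaks, and 48 hpf peaks covered 8.82%, 9.15% and 11.4% with 10, 12 and 8.

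The few MethylCap peaks of the hoxba and hoxaa cores lay at their right ends, outside the H3K27me3 domains. In hoxba a peak from 24037268 to 24037573 (fold 4.54) and a peak from 24038433 to 24038740 (fold 5.39) were called at dome, and both sites again at 24 hpf with folds of 6.55 and 7.09. Neither was called at 48 hpf. In hoxaa a single site was called at all stages, from 19256757 to 19257169 at dome (fold 7.95), 19256786 to 19257090 at 24 hpf (fold 5.73) and 19256721 to 19257161 at 48 hpf (fold 6.79).

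The MethylCap values held more than the caller's ratio. From the deposited fold and −log10 p of a peak, the number of reads stacked at its summit and the reads expected from its surroundings can be solved. The summit pileup came out as a whole number, within 0.0001 on the −log10 p scale, in 99.99% of dome peaks (220548 of 220564) and in 330168 of 330176 and 192671 of 192673 peaks at 24 and 48 hpf. The background, taken over 10 kb with the shortest peak (244, 192 and 211 bp) as the fragment length, was a whole number of reads within 0.05 in all peaks above its lowest value. This lowest value, the floor, stood at 103.4, 138.8 and 78.2 reads per 10 kb at dome, 24 hpf and 48 hpf. In MACS2 the lowest background is the average over the whole library, so the floors also order the libraries by depth if the same genome size was set for each. No peak at the floor had fewer than 8, 8 and 6 reads at its summit, so sites with fewer reads in a core do not appear in these lists. Pileup and background came out whole with no scaling between them, and the use of a control library is not given in the sources used here.

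Most MethylCap peaks of the hoxab window stood in surroundings richer in captured reads than those of the other windows. All MethylCap peaks of the hoxba and hoxaa cores were at the floor, with 15 and 18 summit reads at the hoxba sites at dome, 23 and 25 at 24 hpf, and 27, 20 and 17 at the hoxaa site at dome, 24 hpf and 48 hpf. In the hoxab flanks the median was 255 reads per 10 kb at dome, 336 at 24 hpf and 171 at 48 hpf. In the flanks of the other 3 loci the median was at the floor at all 3 stages when pooled, and also in hoxca and hoxba singly. In the hoxaa flanks it was above the floor, at 127, 153 and 89 reads per 10 kb at dome, 24 hpf and 48 hpf. At dome 2 of 102 hoxab flank peaks were at the floor, against 33 of 61 in hoxca, 27 of 41 in hoxba and 24 of 65 in hoxaa.

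**Figure D4:**
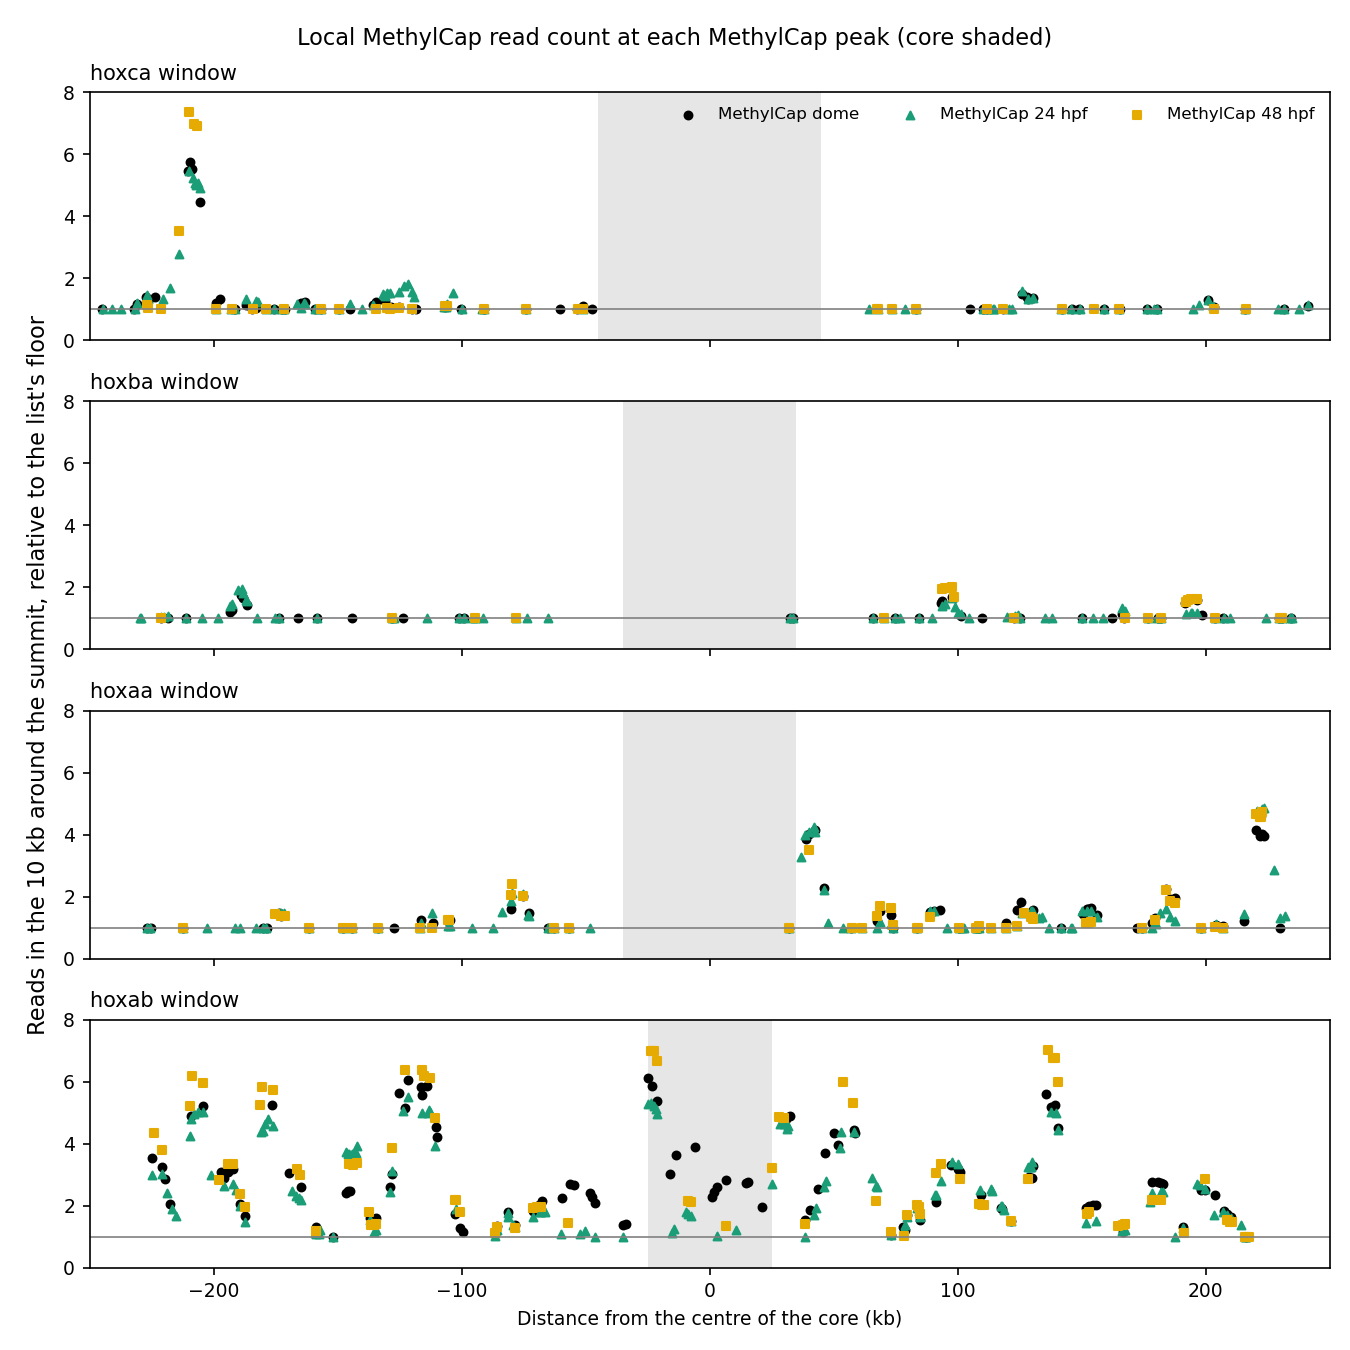
MethylCap reads in the 10 kb around the summit of each MethylCap peak, divided by the floor of its list (grey line at 1), against distance from the centre of the core in kb, with a symbol for each stage and the core shaded. In the hoxab window most peaks lie above the floor, with a patch of 5.38 to 6.11 at the left end of the core at dome, 1.96 to 3.91 inside the H3K27me3 domain and flank medians of 2.45 and 2.50, while the hoxba and hoxaa core peaks sit on the floor line and the hoxca core has none.

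Within the hoxab core, the highest local read densities lay in a patch at its left end, outside the H3K27me3 domain. There, 3, 5 and 4 MethylCap peaks at dome, 24 hpf and 48 hpf had 556 to 632, 690 to 740 and 521 to 547 reads per 10 kb, which is 5.38 to 6.11, 4.97 to 5.33 and 6.66 to 7.00 times the floor. None of these overlapped an H3K27me3 peak. Inside the domain, 10, 7 and 3 peaks had 203 to 404, 143 to 252 and 106 to 168 reads per 10 kb, or 1.96 to 3.91, 1.03 to 1.82 and 1.36 to 2.15 times the floor. The patch and the domain did not overlap in these values at any stage, and relative to the floor every peak inside the domain at 24 hpf was below every one of dome. At the right end, a peak from 20329789 to 20330106 was called at 24 hpf with 377 reads per 10 kb, and from 20329809 to 20330114 at 48 hpf with 251. The patch was above the medians of the hoxab flanks, but the flanks also held peaks near its level. On the left their highest values were 6.05, 5.52 and 6.38 times the floor at dome, 24 hpf and 48 hpf. On the right they were 5.60, 5.04 and 7.03. At dome, 18 of 52 left and 16 of 50 right flank peaks had at least 3 times the floor. The next 2 dome peaks to the left of the patch, in the flank, had 143 and 147 reads per 10 kb. These were 1.38 and 1.42 times the floor, below every dome peak inside the domain. The flank medians at dome were 2.45 times the floor on the left and 2.50 on the right, against 2.75 inside the domain, and 2.42 on both sides against 1.26 at 24 hpf. At 48 hpf they were 3.18 and 2.02, against 2.11. The 10-kb windows of neighbouring summits share reads, so peaks of a stage are not independent of each other. Splitting the core at the domain was chosen after the values were seen.

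Summit reads also differed between the patch and the domain. Inside the hoxab domain the summits had 19 to 27 reads at dome, 14 to 16 at 24 hpf and 10 to 14 at 48 hpf, and in the patch 32 to 38, 27 to 32 and 26 to 35. Fold enrichment ran the other way, at 2.58 to 3.70, 2.74 to 4.28 and 3.08 to 3.40 inside the domain and 2.27 to 2.47, 1.91 to 2.18 and 2.15 to 3.0 in the patch, since it is relative to the local background. The fold of a MethylCap peak therefore did not rank these sites by captured reads. In whole lists, 7.06%, 5.09% and 8.12% of peaks at dome, 24 hpf and 48 hpf had at least 3 times the floor.

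MethylCap calls in the hoxab core overlapped less between dome and the later stages than those of the whole lists, while the share between 24 and 48 hpf was near that of the lists. Of its 13 dome peaks, 3 overlapped a 24 hpf peak (23.1%, 8.18 to 50.3%), against 82.4% of all dome peaks and 69 of 102 in the hoxab flanks (67.6%, 58.1 to 75.9%). Of the same 13, 3 overlapped a 48 hpf peak, against 60.3% of all dome peaks. Of its 13 peaks of 24 hpf, 3 overlapped a dome peak (23.1%) and 6 a 48 hpf peak (46.2%), against 57.4% and 48.2% of all 24 hpf peaks. Of its 8 peaks of 48 hpf, 3 overlapped a dome peak (37.5%, 13.7 to 69.4%) and 6 a 24 hpf peak (75.0%, 40.9 to 92.9%), against 71.3% and 82.1% of all 48 hpf peaks. The hoxab core calls also scored lower than the lists. Their median −log10 q was 4.43, 3.47 and 3.06 at dome, 24 hpf and 48 hpf, against 5.90, 5.77 and 4.75. What part this has in the overlaps was not tested. Inside the domain 1 of 10 dome peaks had a 24 hpf peak and 1 of 10 a 48 hpf peak. Merged over stages, the hoxab core held 23 methylated regions, of which 15 were called at 1 stage, 6 at 2 and 2 at all 3. Regions called at all 3 stages made up 8.70% of the merged regions in the hoxab core, 26.1% of those in its flanks and 31.6% of those on all chromosomes. The flanks differed too, with 18.8% in hoxca, 17.3% in hoxba and 43.2% in hoxaa.

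Both marks met in the hoxab core only. At dome, 6 of 14 hoxab core H3K27me3 peaks overlapped a dome MethylCap peak (42.9%, 21.4 to 67.4%), and none of 28, 24 and 23 in hoxca, hoxba and hoxaa. Over the 4 cores this was 6 of 89 (6.74%, 3.13 to 13.9%), against 29.6% of all dome H3K27me3 peaks and 26 of 86 in the flanks (30.2%, 21.5 to 40.6%), and without hoxab 0 of 75 (0%, 0 to 4.87%). Median widths were 2431 bp for the 6 hoxab peaks with methylation and 356 bp for the other 8, with overlapping ranges. At 48 hpf, 2 of 28 core peaks overlapped a 48 hpf MethylCap peak (7.14%, 1.98 to 22.6%), both in hoxab, against 12.1% of all 48 hpf peaks and 3 of 37 in the flanks (8.11%). Of the H3K27me3-covered bases of the hoxab core, 15.3% were in MethylCap peaks at dome and 4.18% at 48 hpf. The same shares of bases over all chromosomes were not computed. The lists come from whole embryos, so marks on the same DNA cannot be told apart from marks in different cells.

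Pooled over the loci, the flanks bordering the cores had less MethylCap coverage than those farther out, with hoxaa as an exception at dome and 24 hpf. Mean MethylCap coverage of the bins within 50 kb of a core was 5.31%, 6.15% and 3.23% at dome, 24 hpf and 48 hpf. From 50 to 100 kb it was 8.08%, 9.45% and 5.27%. In hoxaa the left and right sides had 7.59% and 9.59% within 50 kb and 6.72% and 9.87% from 50 to 100 kb at dome, and 7.45% and 12.8% against 6.46% and 12.5% at 24 hpf. The right side of hoxca at 48 hpf, with 2.51% against 1.56%, also went the other way. Single bins varied widely, from 0% to 9.59% within 50 kb at dome, with the 0% on the left of hoxba. Densest of all flank sites in hoxca was a stretch near the far left of the window, where peaks reached 5.73, 5.44 and 7.37 times the floor at dome, 24 hpf and 48 hpf. The hoxaa window had its highest values right of the core, up to 4.14, 4.87 and 4.72 times the floor. No hoxba flank peak reached 3 times the floor at any stage.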

How the data were processed

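Starting material was 1 deposited peak list per library, and each group was 1 library. Per the submitters' processing notes, CASAVA 1.8.2, Bowtie2 2.2.1, SAMtools and MACS2 were used with build danRer7; their roles and parameters, a control library and pooling are not given in the sources used here. H3K27me3 lists had the 9-column broad layout, in which a peak's values are averages over it, and MethylCap lists the 10-column narrow layout with a deposited summit offset. In the deposited lists the fold is enrichment over the caller's local background, a ratio. The deposited −log10 p and −log10 q are those of the caller, and the deposited score is 10 times the −log10 q without decimals.

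All values rest on the 25 numbered chromosomes; peaks on other sequences (5, 2, 7, 4 and 0 in the H3K27me3 dome, H3K27me3 48 hpf, MethylCap dome, 24 hpf and 48 hpf lists) were set aside. The chromosome span, to the highest peak end in any list, was 1357 Mb. Peaks were shared at an overlap of at least 1 bp. Domains joined peaks within 5 kb and are given from 10 kb. Summit reads c and background b were solved from fold = (c + 1)/(b + 1) and the Poisson probability of more than c reads, a method chosen after the data were seen, and the script was checked on simulated peaks. The windows, members and comparisons were chosen with earlier results of these data known. Named peaks are, for each locus and H3K27me3 list, the widest and the highest-scoring core peak, the widest core peak of 1 stage only and the highest-scoring flank peak. They also include the highest-scoring MethylCap core peak and those bounding the gap. Other peaks named, among them those of the hoxab core pairs and the hoxba MethylCap sites, were chosen after their values were seen. A danRer7 genome and annotation were not used here, so no sequence is shown. Alternatives tried were a 50% overlap, −log10 q of at least 2, the higher-scoring 50% of each list, cores extended by 10 kb, flanks of 100 kb, other joining distances, each locus left out, and a dome list cut to the length of the 48 hpf list. Python 3.11.15, NumPy 2.4.6, pandas 2.3.3, SciPy 1.17.1, statsmodels 0.14.6 and matplotlib 3.10.9 were used.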

Additional observations from a re-analysis of the deposited data

How the results depend on the processing

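No paired analysis was possible because each group was 1 library and no test was run. Of 92 values under other settings, 64 stayed within the interval or the 1.5-fold range of the reported value and 28 moved. Of a further 79 values of coverage, 57 stayed within an interval that treats each kb as a count, and 22 moved. With the dome list cut to the length of the 48 hpf list, dome core coverage was 26.6% in place of 35.2%. At −log10 q of at least 2, core coverage was 31.8% at dome, and at 48 hpf 9.84% in place of 15.4%. An overlap of 50% of the shorter peak took the share of 48 hpf core H3K27me3 peaks with a dome peak to 82.1%. At −log10 q of at least 2 it was 100%, the core share of dome window peaks 59.8% and the share of dome core peaks with a 48 hpf peak 23.3%. With the higher-scoring 50% of each list these overlaps were 100% and 20.5%, the overlap of dome core H3K27me3 with MethylCap 2.41% and the core share of MethylCap peaks at 24 hpf 2.19%. Cores extended by 10 kb gave core shares of 55.4% for H3K27me3 at 48 hpf and 9.47% and 6.91% for MethylCap at dome and 24 hpf. Flanks of 100 kb gave 60.1% for dome H3K27me3, 11.5%, 8.47% and 9.09% for MethylCap at dome, 24 hpf and 48 hpf, and 52.5% of dome flank peaks with a 48 hpf peak. The dome list cut to the length of the 48 hpf list gave a core share of 58.8%, 75.0% of 48 hpf core peaks with a dome peak and 77.5% of dome flank peaks with a 48 hpf peak; this setting was chosen after the data were seen. Domains numbered 6 at dome and 2 at 48 hpf; joining within 1 kb turned this order, with 0 at dome and 1 at 48 hpf, and within 10 kb there were 8 at both. Cores extended by 10 kb turned the order of core and flank in the share of dome peaks with a 48 hpf peak, from 37.1% and 41.9% to 39.6% and 39.2%. Leaving out hoxca also turned it, to 44.3% in the core and 41.7% in the flanks.

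Leaving out each locus in turn gave core shares of 45.9 to 55.6% and 38.9 to 46.5% for H3K27me3 at dome and 48 hpf, and 1.76 to 7.14%, 1.20 to 5.23% and 0.926 to 5.66% for MethylCap at dome, 24 hpf and 48 hpf. Overlaps were 26.7 to 44.3% (dome core peaks with a 48 hpf peak), 95 to 100% (48 hpf core with dome), 35.0 to 49.3% (dome flank with 48 hpf) and 0 to 9.84% (dome core with MethylCap). The lowest MethylCap shares and overlaps of dome core peaks are those without hoxab. Depth limits the H3K27me3 lists to called peaks, since no reads could be solved from values averaged over a peak.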
